A study of Homo sapiens with 6 samples.

Results

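Resistant RMS13-R cells were compared with parental RMS13 cells while both were under the same dose of MAL3-101, over 15148 tested genes of 55401 gene names. RMS13 is a human cell line of alveolar rhabdomyosarcoma, a tumour that resembles embryonic skeletal muscle, and MAL3-101 is a small molecule that inhibits the HSP70 chaperones. Total RNA was sequenced from 4 libraries of the comparison, labelled A and B in each line, after 9 h with 10 µM MAL3-101. RMS13-R is labelled as having derived resistance to the drug. Nothing given for this work says how it was selected, whether it is 1 clone or whether it was kept under drug beforehand. Another 2 libraries, parental cells with DMSO for 9 h, entered the fit to share the estimate of spread. MAL3-101 stands in the titles of both as well, but their descriptions give DMSO alone and set the group; their levels stand beside some genes. All 6 libraries came from cells grown in RPMI 1640 medium with serum. Resistant cells with DMSO were not analysed here, so what the line carries without the drug and what it did under the drug cannot be told apart. Whether the libraries of a line came from separate cultures is not in the labels, so the spread behind each p-value is that of the libraries and may be technical. In these bulk samples fewer cells with a transcript and less of it per cell cannot be told apart.

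HSP70 chaperones bind unfolded stretches of client proteins in cycles of ATP hydrolysis that J-domain proteins start and nucleotide exchange factors end. When they are blocked, heat shock factors and the integrated stress response commonly raise the transcripts of chaperones and of ATF4 targets. Alveolar rhabdomyosarcoma cells carry muscle regulators such as MYOD1 and MYOG without completing muscle differentiation, and often depend on growth factor receptors and on the fusion protein PAX3-FOXO1.

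Values are TPM, a transcript abundance scaled to a fixed total, and differences are on the scale log2(TPM + 1), resistant minus parental, so that a negative number means lower in resistant cells and the change of a low gene is understated. A gene is called where limma's moderated test gave a Benjamini-Hochberg adjusted p under 0.05. By this rule 3228 genes (21.3%) were higher and 5267 (34.8%) lower, 56.1% in all, so a share of a gene list near these percentages is no result about the list. Under median-ratio scaling the split was 4220 higher and 4362 lower, and under upper-quartile scaling 4333 and 4237, since these scalings moved the median difference of all genes from -0.099 to -0.005 and 0.007. Of all tested genes, 3.14% were called and at least 2-fold higher and 7.57% called and at least 2-fold lower. Both resistant libraries lay above both parental ones for 34% of genes and below them for 49.4%. The 2 libraries of each line were close, with r = 0.9962 across genes in the resistant and 0.9953 in the parental pair, although genes are not independent replicates. Mitochondrial rRNA made up 0.784% and 0.767% of TPM in resistant libraries and 1.92% and 1.97% in parental libraries under the drug. This share was 0.533% and 0.565% in parental libraries with DMSO. With the mitochondrial genome left out and TPM rescaled, 3337 of 15133 genes were higher and 5166 lower. Beyond these counts, the part of this share in other differences was not tested.

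**Figure D1:**
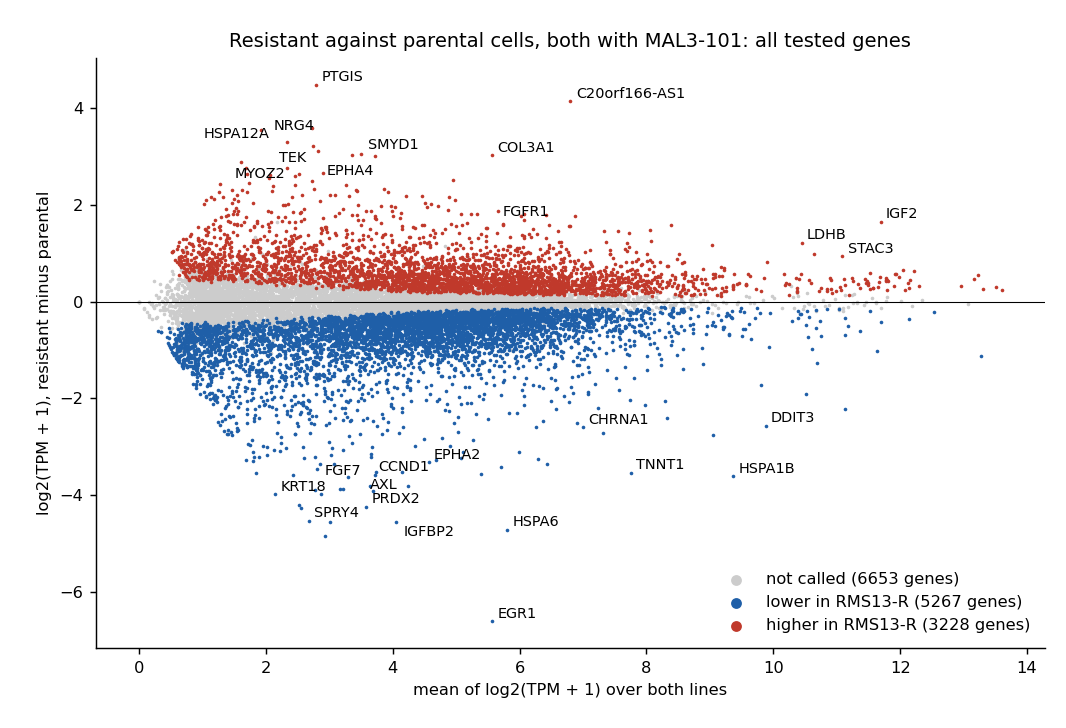
Difference between resistant and parental cells under MAL3-101 (vertical axis, log2(TPM + 1)) against the mean level over both lines (horizontal axis, log2(TPM + 1)), 1 point a gene. Blue points are the 5267 called lower, red points the 3228 called higher and grey points the rest; the points far below zero outnumber those far above, and EGR1 lies lowest at -6.61.

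**Figure D2:**
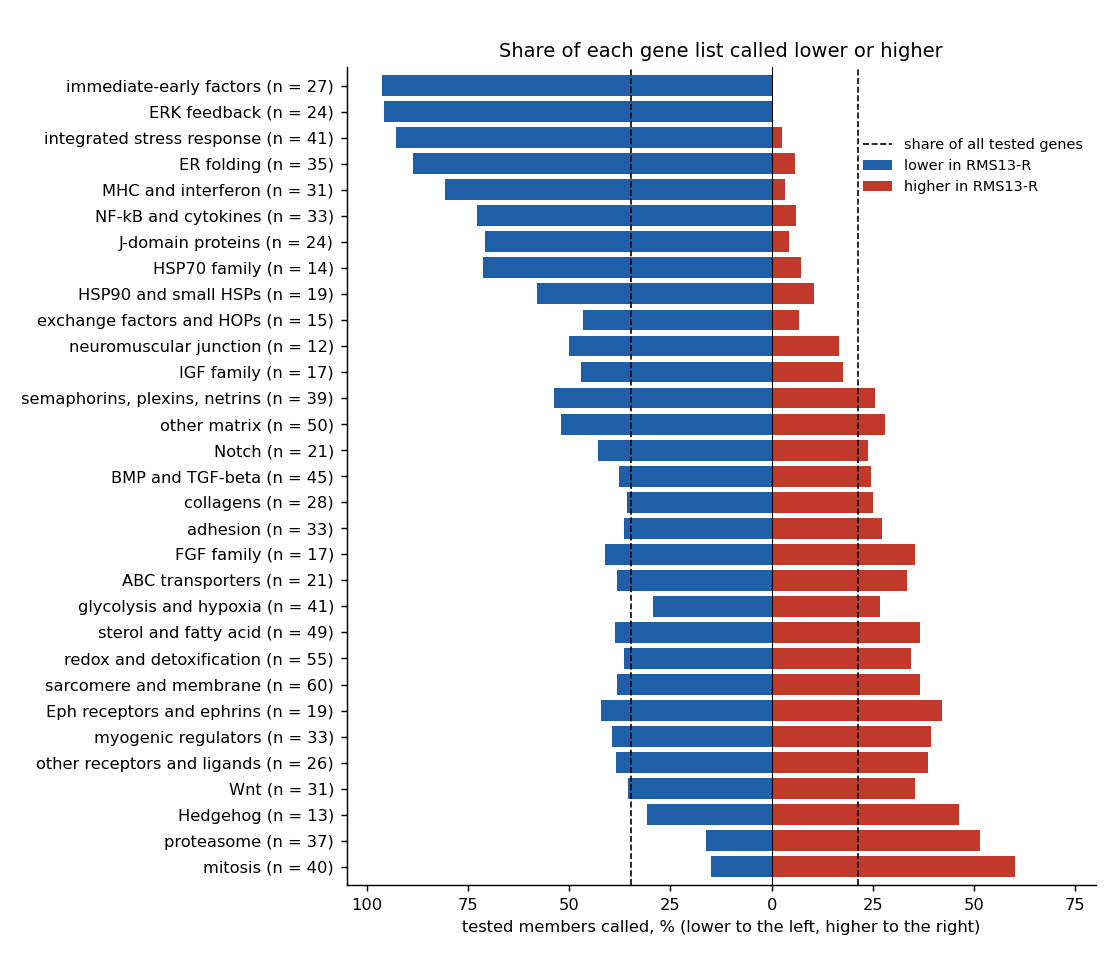
Percentage of the tested members of each gene list called lower (blue, left) or higher (red, right) in resistant cells, with the number of tested members in brackets. Dashed lines mark the shares over all tested genes, 34.8% lower and 21.3% higher; stress and feedback lists extend furthest to the left, while receptor, muscle and metabolic lists have bars on both sides.

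In the HSP70 family 10 of 14 tested members were lower, 1 was higher and 3 did not pass, with 2 higher without either DMSO library. Inducible HSP70 comes from HSPA1A and HSPA1B, whose sequences are almost alike and can trade reads, so they were summed. The sum was 200.3 and 196.4 TPM in the resistant libraries, 2691 and 2212 TPM in the parental ones and 137.9 and 134.7 TPM with DMSO. That is a 12.4-fold gap with no overlap, and an exact permutation test of 2 libraries against 2, two-sided, gave p = 0.333, the smallest p this design allows. Among J-domain proteins, which bring clients to HSP70 and start its cycle, 17 of 24 tested members were lower, 1 was higher and 6 did not pass. DNAJB1, the main cytosolic J-domain partner, stood at 206 and 201 TPM in the resistant line against 1475 and 1284 TPM in the parental line. DNAJC18 stood at 8.46 and 9.95 TPM against 34.1 and 32.4 TPM, with a difference of -1.75 (SE 0.09, adjusted p = 1.5e-05). DNAJB6 and DNAJB4 differed by -1.49 (SE 0.05) and -1.38 (SE 0.08). Of the 6 that did not pass, DNAJA2, a housekeeping partner, had 76.7 and 76.8 TPM in the resistant line against 82.4 and 85.2 TPM in the parental line, with a 95% interval of the difference of -0.24 to -0.01. DNAJB2 was the 1 member higher, a difference of 0.49 (SE 0.06); without either DMSO library 2 were higher and 20 lower.

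In a mixed list of nucleotide exchange factors, BAG proteins and other HSP70 or HSP90 co-chaperones, 7 of 15 tested members were lower, 1 was higher and 7 did not pass, with 3 higher without either DMSO library or under either scaling and 0 higher without any 1 of the 4 MAL3-101 libraries. The higher member was FKBP4, an HSP90 co-chaperone, at 0.15 (SE 0.05), with adjusted p of 0.0561 to 0.171 without 1 of those libraries. BAG3, which couples HSP70 to autophagy, had 24.6 and 23.6 TPM in resistant and 258 and 223 TPM in parental cells. CHORDC1, an HSP90 co-chaperone, had 34.6 and 31.5 TPM against 144 and 119.8 TPM, a difference of -1.96 (SE 0.10), while ST13 (the HSP70-interacting protein HIP) had 373 and 384 TPM against 385 and 375 TPM, an interval of -0.15 to 0.14. In the list of HSP90 and small heat shock proteins, 11 of 19 tested members were lower, 2 were higher and 6 did not pass. HSPB8, the small heat shock protein that works with BAG3, stood at 5.12 and 5.59 TPM in the resistant line against 32.5 and 29.5 TPM in the parental line, a difference of -2.33 (SE 0.17, adjusted p = 5.2e-05). HSPB2 and CRYAB, 2 neighbouring muscle small heat shock genes, differed by -1.72 (SE 0.12) and -1.53 (SE 0.23). HSF4, a heat shock factor, was higher, with 13.9 and 15.6 TPM against 4.85 and 5.13 TPM and a difference of 1.40 (SE 0.10). HSPB7, a small heat shock protein of muscle, had 201 and 199 TPM against 94.1 and 94.3 TPM, a difference of 1.08 (adjusted p = 0.0223); its DMSO libraries were unequal, at 76.1 and 33.02 TPM. Leaving out any 1 of the 4 MAL3-101 libraries ended that call, with adjusted p from 0.0877 to 0.0916, and left HSF4 as the 1 higher member. HSP90AA1, the inducible cytosolic HSP90, stood at 1146 and 1094 TPM against 2291 and 2104 TPM, a difference of -0.97 (SE 0.06). HSPA5, the HSP70 of the endoplasmic reticulum, was lower, at -1.92 (SE 0.05), while HSPA8, the constitutive cytosolic one, did not pass (interval -0.11 to 0.30). HSF1, the master heat shock factor, did not pass, with 67.6 and 70.7 TPM in the resistant line against 67.4 and 69.7 TPM in the parental line and an interval of -0.14 to 0.17.

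Promoters show which of these genes carry the motif of heat shock factors near their start site. In the 250 bases before each start site in RefSeq (GRCh38.p14), the 2-unit heat shock element, GAANNTTC or TTCNNGAA on either strand, was found for 10 of the 19 chaperone genes that were called at least 2-fold lower and had a promoter in the table (52.6%), against 14% of 27305 genes with a promoter and 11.9% of 10379 tested ones. Of the 811 genes with a promoter that were called at least 2-fold lower, 12.9% held it. The stricter 3-unit form, which adds a further alternating GAA or TTC unit after 2 free bases, was found in HSPA6, DNAJB6 and CHORDC1 and in 0.557% of all genes; each 3-unit match also contains the 2-unit form. Chaperone genes outside these 19 were not counted, so whether the share belongs to the whole family was not tested. A match is a description of letters, not a site shown to be used. The promoters of HSPA6, HSPA1B and DNAJB1 are printed from 250 to 1 bases before the start site, 5′ to 3′ on the gene's strand, with the 2-unit matches in capitals. They lie at chr1:161524290-161524539 (plus strand), chr6:31827488-31827737 (plus strand) and chr19:14518398-14518647 (minus strand), in GRCh38.p14 and not in the build of the deposited values.
HSPA6: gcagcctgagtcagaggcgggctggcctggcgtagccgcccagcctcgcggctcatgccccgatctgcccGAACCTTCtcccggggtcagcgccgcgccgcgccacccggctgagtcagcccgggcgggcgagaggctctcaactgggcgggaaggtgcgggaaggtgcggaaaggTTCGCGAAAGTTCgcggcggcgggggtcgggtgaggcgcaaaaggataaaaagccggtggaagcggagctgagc
HSPA1B: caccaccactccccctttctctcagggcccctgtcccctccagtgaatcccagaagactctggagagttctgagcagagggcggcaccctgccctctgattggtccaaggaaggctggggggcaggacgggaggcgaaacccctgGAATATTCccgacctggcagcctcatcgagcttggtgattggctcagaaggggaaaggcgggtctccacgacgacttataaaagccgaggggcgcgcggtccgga
DNAJB1: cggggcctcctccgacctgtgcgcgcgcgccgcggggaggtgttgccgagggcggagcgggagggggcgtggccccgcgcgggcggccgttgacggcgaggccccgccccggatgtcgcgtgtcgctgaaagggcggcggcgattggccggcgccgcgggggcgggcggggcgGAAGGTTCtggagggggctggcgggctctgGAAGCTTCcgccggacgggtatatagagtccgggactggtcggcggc
HSPA6, an HSP70 gene that is almost silent without stress, holds 3 matches, of which those starting 74 and 69 bases before the start site overlap, and its level was 10.4 and 9.23 TPM in the resistant line against 326 and 247 TPM in the parental line. HSPA1B and DNAJB1 hold 1 and 2 matches.

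Transcripts of growth factor ligands were called in both directions. HBEGF and TGFA, ligands of the EGF receptor, were both lower. TGFA stood at 0.21 and 0.11 TPM in the resistant line against 9.32 and 10.1 TPM in the parental line, and at 3.5 and 5.34 TPM with DMSO. HBEGF stood at 1.74 and 1.51 TPM against 28.2 and 23.7 TPM, a difference of -3.36 (SE 0.27, adjusted p = 6.8e-05). NRG4, a ligand of ERBB4, went the other way, with 19.6 and 19.2 TPM in the resistant line against 1.39 and 1.03 TPM in the parental line, a difference of 3.21 (SE 0.21, adjusted p = 2.8e-05). Of the receptors, ERBB2 was higher (23.98 and 22.99 TPM against 10.1 and 11.8 TPM, 1.03 (SE 0.10)), and EGFR and ERBB3 did not pass, with intervals of -0.12 to 0.55 and -0.86 to 0.69. In this ERBB list 4 of 9 tested members were lower, 2 were higher and 3 did not pass. For none of the called ligands and receptors named here did the libraries of the lines overlap. The same held for most tested genes, with resistant libraries above for 34% and below for 49.4%.

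In the FGF family 7 of 17 tested members were lower, 6 were higher and 4 did not pass. FGF8 and FGF7, secreted ligands, were lower. FGF7 had 3 and 2.85 TPM in the resistant line against 43.7 and 44 TPM in the parental line, a difference of -3.51 (SE 0.10, adjusted p = 1.5e-06). FGF8 had 9.01 and 9.46 TPM against 72.1 and 71.1 TPM, a difference of -2.83 (SE 0.06). FGFR4, a receptor highly expressed in this tumour type, was lower as well (199 and 211 TPM against 395 and 406 TPM, -0.96 (SE 0.07)), and so was the adaptor FRS2 (-0.76 (SE 0.08)). FGFR1 was higher instead, at 87.4 and 95.7 TPM in the resistant line against 29.7 and 29.5 TPM in the parental line, a difference of 1.59 (SE 0.10, adjusted p = 2.8e-05), as was FGF13, an intracellular member of the family that is not secreted (55.3 and 57.9 TPM against 23.1 and 24 TPM, 1.23 (SE 0.08)). GPC1, a cell-surface heparan sulphate proteoglycan, was higher, at 0.99 (SE 0.05).

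Downstream of these receptors, ETS factors and feedback inhibitors that ERK signalling induces were lower with 1 exception that did not pass: 23 of 24 tested members were lower, 0 were higher and 1 did not pass. SPRY4, an inhibitor of receptor signalling, was near the limit of detection at 0.31 and 0.34 TPM in resistant cells, with 31.2 and 28.3 TPM in parental cells and 23 and 28.4 TPM with DMSO. DUSP6, the phosphatase of ERK, stood at 5.75 and 6.75 TPM in the resistant line against 45.6 and 40.2 TPM in the parental line and at 43.8 and 46.4 TPM with DMSO. ETV4, ETV5 and ETV1, ETS factors of this pathway, differed by -3.88 (SE 0.08), -3.59 (SE 0.14) and -3.07 (SE 0.16). CCND1, cyclin D1, stood at 3.5 and 2.78 TPM in the resistant line against 37.3 and 36.8 TPM in the parental line, and at 76.3 and 126 TPM with DMSO, a difference of -3.21 (SE 0.21, adjusted p = 3.1e-05) between the lines under drug. For SPRY4, DUSP6, ETV4 and CCND1 both resistant libraries thus lay below both parental libraries with MAL3-101 and both with DMSO. PHLDA3 was the member that did not pass (50.96 and 51.4 TPM against 54.2 and 54.6 TPM).

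**Figure D3:**
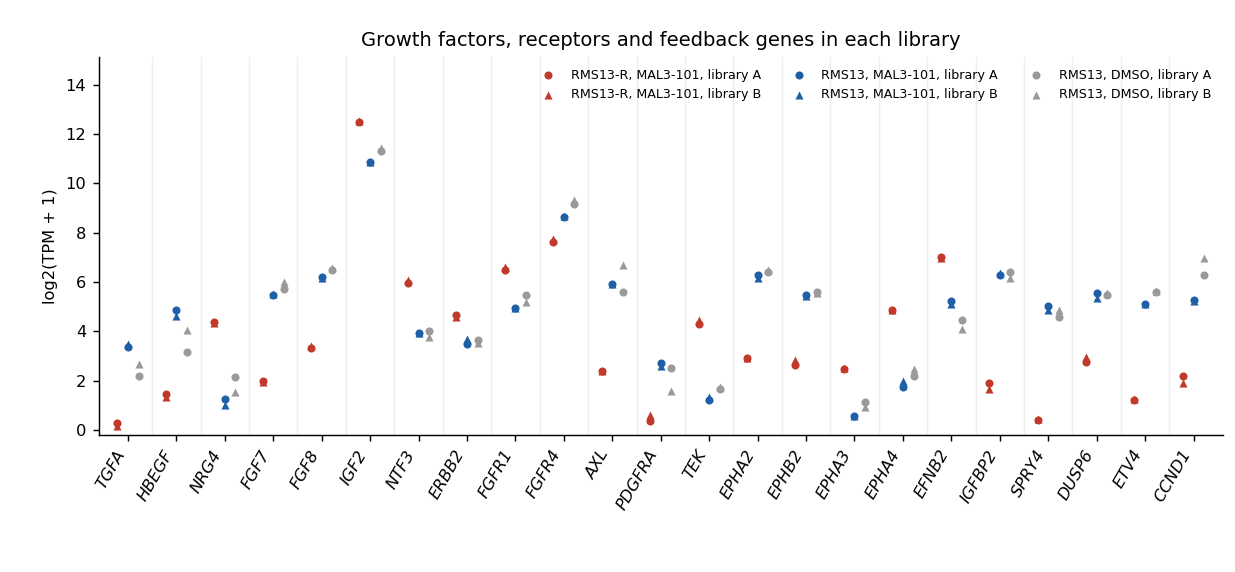
Levels as log2(TPM + 1) in each library for growth factors, receptors and feedback genes; red marks resistant cells with MAL3-101, blue parental cells with MAL3-101 and grey parental cells with DMSO, with circles for library A and triangles for library B. Red lies below blue and grey for FGF7, EPHA2, SPRY4, DUSP6, ETV4 and CCND1, and above both for NRG4, IGF2, FGFR1, TEK, EPHA4 and EFNB2.

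EGR1, the zinc finger factor induced by this pathway, had the largest difference of all tested genes, -6.61. Its promoter is shown because the lowest difference falls on it, with CArG boxes, the motif of serum response factor, in capitals (2 matches, starting 105 and 83 bases before the start site; chr5:138465229-138465478, plus strand, GRCh38.p14). A CArG box was found in 1.44% of genes with a promoter, 1.52% of tested ones and 2.1% of the 811 called at least 2-fold lower. It was found in 2 of 13 immediate-early genes called at least 2-fold lower, EGR1 and EGR2. Other immediate-early genes were not counted.
EGR1: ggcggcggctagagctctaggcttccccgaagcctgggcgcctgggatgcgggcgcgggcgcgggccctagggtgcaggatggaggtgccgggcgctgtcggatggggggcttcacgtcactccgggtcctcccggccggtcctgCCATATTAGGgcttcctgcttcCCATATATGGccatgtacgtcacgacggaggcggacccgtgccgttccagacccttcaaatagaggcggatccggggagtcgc
SRF itself, the factor that binds this box, had 41.6 and 38.8 TPM in the resistant line against 45.5 and 46.1 TPM in the parental line, a difference of -0.18 (SE 0.07, adjusted p = 0.0456); leaving out a MAL3-101 library or rescaling ended its call (adjusted p up to 0.488).

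Other receptor tyrosine kinases and their ligands were on both sides, and 10 of 26 tested members were lower, 10 were higher and 6 did not pass. AXL, a receptor of GAS6, stood at 4.22 and 4.19 TPM in the resistant line against 59.1 and 59.4 TPM in the parental line, a difference of -3.53 (SE 0.30, adjusted p = 8.3e-05), although its DMSO libraries were 47.7 and 103 TPM. PDGFRA, the receptor of PDGF-A, stood at 0.27 and 0.51 TPM against 5.51 and 5 TPM, a difference of -2.17 (SE 0.29). ALK and MET, kinases reported as targets of PAX3-FOXO1, were lower, at -1.12 (SE 0.25) and -0.94 (SE 0.06). TEK, the angiopoietin receptor TIE2, was higher at 18.9 and 20.9 TPM in the resistant line against 1.31 and 1.5 TPM in the parental line, a difference of 3.12 (SE 0.12, adjusted p = 4.6e-06). Secreted factors on the higher side were NTF3, a neurotrophin (61.1 and 67.1 TPM against 14.2 and 14.1 TPM, 2.10 (SE 0.10)), PDGFD (28.3 and 28.8 TPM against 7.88 and 7.48 TPM, 1.77 (SE 0.16)) and VEGFC (22.03 and 22.6 TPM against 8.24 and 7.7 TPM, 1.38 (SE 0.10)).

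IGF2, the fetal growth factor that rhabdomyosarcoma commonly overexpresses, was among the most abundant transcripts and stood at 5825 and 5916 TPM in the resistant line against 1859.7 and 1864 TPM in the parental line, a difference of 1.66 (SE 0.06, adjusted p = 2.8e-06), with 2525 and 2776 TPM under DMSO. Its antisense gene IGF2-AS had 44.99 and 44.7 TPM against 11.5 and 10.2 TPM, and reads of the pair cannot be told apart without a strand-specific count. IGFBP2, which binds IGFs in the medium, was lower at 2.7 and 2.15 TPM against 76.3 and 82.4 TPM, a difference of -4.56 (SE 0.11, adjusted p = 1.1e-06). Further binding proteins, IGFBP4 and IGFBP6, were lower, at -1.53 (SE 0.13) and -1.15 (SE 0.16), and so was PAPPA, a protease that cleaves IGFBP4 (0.64 and 0.53 TPM against 5.88 and 5.35 TPM, -2.06 (SE 0.20)). GRB10, an adaptor that restrains insulin receptor signalling, had 0.03 and 0.24 TPM against 3.75 and 3.52 TPM. The receptors IGF1R and INSR did not pass, with intervals of -0.23 to 0.18 and -0.41 to 0.67, while IGF2R, which clears IGF2, was lower, at -0.50 (SE 0.05). Over the IGF list 8 of 17 tested members were lower, 3 were higher and 6 did not pass.

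Eph receptors and their ephrin ligands, which signal between touching cells, had members on both sides. Of this list 8 of 19 tested members were higher, 8 were lower and 3 did not pass, and lower members were 5 without resistant library B or parental library A. EPHA2 stood at 6.48 and 6.47 TPM in the resistant line against 76.9 and 70.8 TPM in the parental line, a difference of -3.32 (SE 0.07, adjusted p = 6.6e-07). EPHB2 stood at 5.24 and 6.11 TPM against 43.7 and 42 TPM and EPHB3 at 7.32 and 6.59 TPM against 30.2 and 30.6 TPM. EPHA4 stood at 28.03 and 28.4 TPM in the resistant line against 2.31 and 2.9 TPM in the parental line, a difference of 3.02 (SE 0.14, adjusted p = 8.2e-06), and EPHA3 at 4.59 and 4.76 TPM against 0.47 and 0.49 TPM. Of the ligands, EFNB2 was higher at 128 and 123 TPM against 36.2 and 33.5 TPM, a difference of 1.82 (SE 0.11), and EFNA2 at 1.91 (SE 0.13), while EFNA5 was lower, at -0.70 (SE 0.11). The list held 6 members called at least 2-fold higher of 19, against 3.14% of all genes, and 4 called at least 2-fold lower, against 7.57%. It was chosen with earlier results of these data known, so these counts describe the list and carry no test.

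Among semaphorins, plexins, netrins and their partners, which guide axons and vessels, 21 of 39 tested members were lower, 10 were higher and 8 did not pass. UNC5B, a netrin receptor, stood at 1.01 and 0.96 TPM in the resistant line against 17.4 and 17.7 TPM in the parental line, a difference of -3.22 (SE 0.13, adjusted p = 4.6e-06). PLXNA4, a semaphorin receptor, stood at 0.08 and 0.04 TPM against 6.48 and 5.81 TPM, SEMA3B at 1.5 and 1.17 TPM against 12.8 and 13.1 TPM and PLXNB1 at 11.5 and 11.3 TPM against 39.4 and 43.3 TPM. NRP1, a co-receptor of semaphorins and VEGF, was lower, at -1.5 (SE 0.14). NTN1, netrin 1, was higher at 25.6 and 23.96 TPM against 11.1 and 10.9 TPM, a difference of 1.10 (SE 0.08), and SEMA6C and RGMA were higher, at 1.41 (SE 0.09) and 1.11 (SE 0.05).

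Developmental pathways had members on both sides. In the Wnt list 11 of 31 tested members were higher, 11 were lower and 9 did not pass. Each direction held 35.5%, against 21.3% higher and 34.8% lower of all tested genes. WNT4 stood at 0.34 and 0.07 TPM in the resistant line against 8.47 and 8.22 TPM in the parental line, a difference of -2.96 (SE 0.25, adjusted p = 8.0e-05), and DKK1, a secreted Wnt inhibitor, at 0.14 and 0.13 TPM against 1.59 and 2.83 TPM. WNT5B was higher at 118 and 123 TPM against 35.7 and 37.3 TPM, a difference of 1.69 (SE 0.17), with WNT11 at 0.99 (SE 0.14). AXIN2, a feedback gene that Wnt signalling induces, was higher at 31.98 and 31.7 TPM against 11.99 and 14.3 TPM, a difference of 1.22 (SE 0.23), and the co-receptor LRP6 at 0.89 (SE 0.08). In the Hedgehog list 6 of 13 tested members were higher, 4 were lower and 3 did not pass. GLI1, an effector of the pathway, had 631 and 659.8 TPM in the resistant and 429 and 442 TPM in the parental line. Its difference was 0.57 (SE 0.04). PTCH1, a receptor of the pathway, stood at 90.97 and 93.8 TPM against 41.6 and 42.3 TPM, a difference of 1.12 (SE 0.13). GLI2 and GLI3 were higher, at 0.80 (SE 0.13) and 0.82 (SE 0.07), while HHIP and CDON, surface proteins that bind the ligand, were lower, at -0.69 (SE 0.06) and -0.87 (SE 0.08). SMO did not pass, with an interval of -0.15 to 0.18.

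In the list of BMP, TGF-beta and activin genes 17 of 45 tested members were lower, 11 were higher and 17 did not pass, and 7 were higher without resistant library A. MSTN, myostatin, an inhibitor of muscle growth, stood at 12.8 and 10.99 TPM in the resistant line against 84.7 and 80.2 TPM in the parental line, a difference of -2.70 (SE 0.24, adjusted p = 1.1e-04). TGFB3 stood at 1.4 and 1.78 TPM against 11.3 and 12.5 TPM, a difference of -2.32 (SE 0.15). SMAD7, ID1, ID2 and ID3, genes that these pathways induce, were lower, at -1.25 (SE 0.10), -0.85 (SE 0.15), -1.04 (SE 0.14) and -0.82 (SE 0.08). FST, follistatin, which binds myostatin and activin, was higher at 50.8 and 59.1 TPM against 31.1 and 28.2 TPM, a difference of 0.87 (SE 0.16). In the YAP list, which also holds TEAD factors, 15 of 24 tested members were lower, 3 were higher and 6 did not pass. Its median was -0.38, and 11 were lower under median-ratio or upper-quartile scaling. Among the reported targets in it, ANKRD1, CTGF and CYR61 differed by -2.50 (SE 0.26), -2.24 (SE 0.27) and -1.95 (SE 0.29), and YAP1 itself did not pass (interval -0.10 to 0.25).

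Both lines expressed muscle regulators, and muscle genes were called in both directions. Of the myogenic regulators 13 of 33 tested members were higher, 13 were lower and 7 did not pass. MYOD1, which commits cells to muscle, stood at 486 and 484 TPM in the resistant line against 714 and 719 TPM in the parental line, a difference of -0.56 (SE 0.04, adjusted p = 4.2e-05). MYOG, the differentiation factor that follows it, had 669 and 688 TPM against 474 and 467 TPM, 0.53 (adjusted p = 0.049); without any 1 of the 4 MAL3-101 libraries its adjusted p was 0.139 to 0.165. The values of PAX3 and FOXO1 can here each also count the PAX3-FOXO1 transcript. PAX3 stood at 75.3 and 76.7 TPM against 51.4 and 47.4 TPM, a difference of 0.61 (SE 0.06). FOXO1 had 49.3 and 46.9 TPM against 26.9 and 24.9 TPM, a difference of 0.87 (SE 0.11). MEF2C was higher, at 0.96 (SE 0.15) and TWIST1, which restrains MYOD1, stood at 11.2 and 11.3 TPM against 3.02 and 3.82 TPM, a difference of 1.48 (SE 0.14). MYF5 was at 0 TPM in all 6 libraries.

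Of 60 tested sarcomere and muscle membrane genes, 22 were higher, 23 lower and 15 did not pass, and 12 were called at least 2-fold lower and 8 at least 2-fold higher. TNNT1, slow skeletal troponin T, stood at 61.9 and 62.8 TPM in the resistant line against 739 and 735 TPM in the parental line, a difference of -3.54 (SE 0.10, adjusted p = 1.4e-06), with 715 and 905 TPM under DMSO. TNNI1, its partner slow troponin I, went the other way, at 940.1 and 946 TPM against 647 and 614 TPM, a difference of 0.58 (SE 0.09). TNNT2, cardiac troponin T, which is also made in fetal muscle, was lower, at -1.34 (SE 0.04). ITGA7, the laminin receptor of muscle fibres, stood at 2.94 and 2.63 TPM against 22.7 and 27.4 TPM, a difference of -2.78 (SE 0.14), and DYSF, dysferlin, which reseals the membrane, at 9.26 and 9.31 TPM against 35.1 and 35.95 TPM, a difference of -1.83 (SE 0.11). ENO3, muscle enolase, stood at 17.8 and 19.6 TPM against 105 and 103 TPM, a difference of -2.42 (SE 0.12), and MB, myoglobin, at 4.01 and 2.13 TPM against 15.98 and 17 TPM, a difference of -2.14 (SE 0.37). On the higher side, MYOZ2, a Z-disc protein, stood at 13.3 and 13.4 TPM in the resistant line against 1.42 and 1.2 TPM in the parental line, a difference of 2.64 (SE 0.28, adjusted p = 2.4e-04), and SMYD1, a methyltransferase needed for sarcomere assembly, at 31.1 and 32 TPM in the resistant line against 3.14 and 2.75 TPM in the parental line, a difference of 3.05 (SE 0.11, adjusted p = 2.8e-06). CAV3, KLHL41 and SGCD, which act in the muscle membrane or the sarcomere, were higher, at 1.34 (SE 0.07), 1.42 (SE 0.11) and 1.32 (SE 0.13), and the calcium release channel RYR1 and its partner STAC3 at 0.97 (SE 0.07) and 0.94 (SE 0.12). DES, desmin, stood at 479 and 471 TPM against 319 and 318 TPM, a difference of 0.57 (SE 0.07).

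In the neuromuscular junction list 6 of 12 tested members were lower, 2 were higher and 4 did not pass. CHRNA1, the alpha subunit of the muscle acetylcholine receptor, stood at 52.1 and 49.9 TPM in the resistant line against 315 and 312 TPM in the parental line, a difference of -2.60 (SE 0.08, adjusted p = 1.5e-06), whereas CHRNG, the subunit of the fetal receptor, was higher at 50.3 and 53.5 TPM against 25.3 and 28.5 TPM, a difference of 0.92 (SE 0.07). DOK7, an adaptor of the kinase MUSK, stood at 3.24 and 3.28 TPM against 19.8 and 20.5 TPM, a difference of -2.31 (SE 0.20), and MUSK did not pass (interval -0.27 to 0.22).

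**Figure D4:**
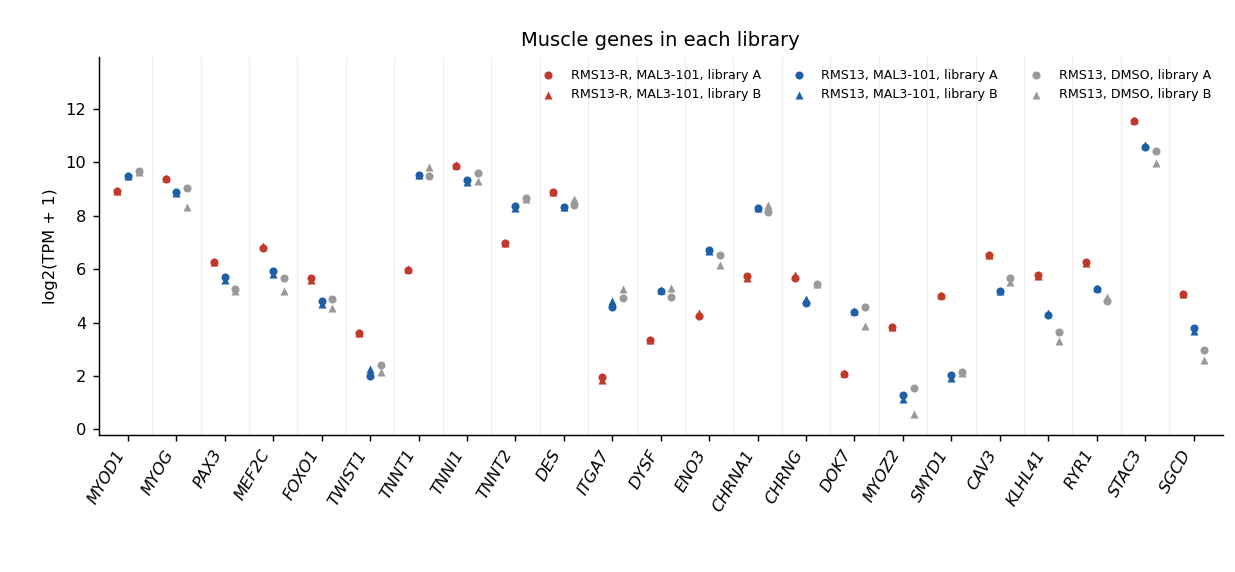
Levels as log2(TPM + 1) of muscle genes in each library, with red for resistant cells with MAL3-101, blue for parental cells with MAL3-101 and grey for parental cells with DMSO; circles are library A and triangles library B. TNNT1, ITGA7, ENO3, CHRNA1 and DOK7 lie lower in red than in blue, while MYOZ2, SMYD1, CAV3, KLHL41 and STAC3 lie higher.

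After PTGIS, the next largest higher differences fell on a host transcript of muscle microRNAs on chromosome 20. C20orf166, named MIR1-1HG in RefSeq, stood at 20.4 and 23.7 TPM in the resistant line against 0.94 and 0.87 TPM in the parental line, a difference of 3.59 (SE 0.18, adjusted p = 1.1e-05), and C20orf166-AS1, which overlaps it, at 456 and 481 TPM in the resistant line against 24.7 and 26.3 TPM in the parental line, a difference of 4.15 (SE 0.15, adjusted p = 3.2e-06). Their reads cannot be told apart without strand. The hairpins of miR-1 and miR-133a, microRNAs that promote and tune muscle differentiation, lie inside this host in RefSeq, and the mature forms were not measured by these libraries. Their 3p sequences are shown to identify them, with the seed (bases 2 to 8) in capitals, and the seeds differ.
hsa-miR-1-3p: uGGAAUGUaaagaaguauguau
hsa-miR-133a-3p: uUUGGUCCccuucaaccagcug

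Of genes that studies have reported as targets of PAX3-FOXO1, 10 of 29 tested members were lower, 8 were higher and 11 did not pass, and leaving out either DMSO library gave 17 lower and 11 higher. In the main fit 34.5% were lower and 27.6% higher, against 34.8% and 21.3% of all tested genes. ABAT, HMGA2 and TFAP2B were lower, at -1.33 (SE 0.10), -1.23 (SE 0.10) and -1.58 (SE 0.16). FOXF1, a forkhead factor, stood at 95.1 and 96.2 TPM in the resistant line against 25.3 and 25.8 TPM in the parental line, a difference of 1.87 (SE 0.05, adjusted p = 1.5e-06), and TFAP2A was higher, at 1.24 (SE 0.08). MYCN stood at 81.3 and 81.8 TPM against 53.2 and 54.1 TPM, a difference of 0.59 (SE 0.05), and SKP2, which marks the inhibitor p27 for degradation, at 656 and 661 TPM against 468 and 423 TPM, a difference of 0.56 (SE 0.08).

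Collagens had members on both sides, and 10 of 28 tested members were lower, 7 were higher and 11 did not pass. Lower and higher shares were 35.7% and 25%, against 34.8% and 21.3% of all tested genes. COL3A1, a fibrillar collagen, stood at 134 and 135 TPM in the resistant line against 16.04 and 15.2 TPM in the parental line, a difference of 3.03 (SE 0.07, adjusted p = 1.1e-06), and COL5A2 at 584 and 579 TPM against 197 and 188 TPM, a difference of 1.59 (SE 0.10). The basement membrane pair COL4A1 and COL4A2 was higher, at 1.08 (SE 0.08) and 0.83 (SE 0.06). COL1A1, another fibrillar collagen, was lower at 2.49 and 1.9 TPM in the resistant line against 16.6 and 18.9 TPM in the parental line, a difference of -2.56 (SE 0.17, adjusted p = 3.0e-05), with COL18A1 at 1.6 and 1.95 TPM against 13.8 and 13.96 TPM and COL15A1 at 0.06 and 0.15 TPM against 4.53 and 5.39 TPM. In the list of other matrix genes 26 of 50 tested members were lower, 14 were higher and 10 did not pass. MFAP2, a component of elastic microfibrils, stood at 0.31 and 1.05 TPM in the resistant line against 36.5 and 38.5 TPM in the parental line, a difference of -4.55 (SE 0.20, adjusted p = 6.9e-06), and ELN, elastin, at 44.04 and 42.3 TPM against 181 and 182 TPM, a difference of -2.05 (SE 0.06). THBS1 and TGFBI, matrix proteins that bind cells, were lower, at -1.91 (SE 0.29) and -2.23 (SE 0.15), and LAMC1 and LAMA5, laminin chains, at -1.56 (SE 0.06) and -1.62 (SE 0.18). FN1, fibronectin, was higher at 276 and 259.6 TPM against 170.5 and 169 TPM, a difference of 0.66 (SE 0.07), with FBN1, fibrillin 1, at 0.78 (SE 0.06). PLAU, the urokinase plasminogen activator, stood at 15.6 and 16.4 TPM against 55.4 and 53.4 TPM, a difference of -1.70 (SE 0.12).

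At the cell surface, L1CAM and NRCAM, adhesion molecules of the same family, stood at 0.75 and 0.8 TPM against 26.1 and 24.6 TPM and 0.54 and 0.96 TPM against 13.4 and 12.8 TPM, differences of -3.89 (SE 0.10) and -3.02 (SE 0.19). CDH2, N-cadherin, was higher at 33.7 and 33.8 TPM in the resistant line against 11.3 and 10.9 TPM in the parental line, a difference of 1.52 (SE 0.08, adjusted p = 1.5e-05). In the adhesion list 12 of 33 tested members were lower, 9 were higher and 12 did not pass, and 4, 4, 5 and 4 were higher without resistant library A, resistant library B, parental library A and parental library B. Keratins were lower: KRT18 stood at 0.16 and 0.06 TPM in the resistant line against 17.03 and 16.2 TPM in the parental line, a difference of -3.99 (SE 0.27, adjusted p = 3.3e-05), KRT7 at 0.77 and 0.77 TPM against 11.6 and 9.66 TPM and KRT8 at 0.63 and 0.3 TPM against 6.22 and 6.33 TPM. These belong to a list of 17 epithelial markers, of which 5 were tested and all 5, with EPCAM and OCLN, were lower; the list summed to 22.7 and 21.0 TPM in resistant, 68.35 and 66.3 TPM in parental and 30.5 and 41.5 TPM in DMSO libraries. CDH1, KRT5, KRT14, KRT19 and GRHL2 stayed under 0.5 TPM throughout. Of 12 leukocyte markers, 1 reached 1 TPM in any library, and PTPRC and CD3E stayed under 0.5 TPM. Of 10 endothelial markers, VWF, CDH5 and KDR stayed under 0.5 TPM, and TEK made up most of the list's sum of 21.0 and 22.8 TPM in resistant cells against 3.72 and 3.64 TPM. The list of 12 fibroblast markers summed to 175.1 and 177.9 TPM against 73.7 and 75.6 TPM, of which COL3A1 alone had 134 and 135 TPM and 16.04 and 15.2 TPM, while 4 of the 7 tested members were lower and 3 higher (median -0.57), and COL1A2 and POSTN stayed under 0.5 TPM.

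Genes of drug export and detoxification, often examined in resistant lines, were on both sides. Of 49 ABC transporters, 21 were tested, 7 were higher, 8 lower and 6 did not pass. Shares of 33.3% higher and 38.1% lower stood against 21.3% and 34.8% of all tested genes. ABCB1 and ABCG2, the best-known efflux pumps, did not reach 1 TPM in a group, with at most 0.13 and 0.38 TPM in any library. ABCA2, a lysosomal sterol transporter, stood at 22.1 and 23.7 TPM in the resistant line against 4.16 and 3.52 TPM in the parental line, a difference of 2.31 (SE 0.12, adjusted p = 1.5e-05). ABCC5 and ABCC1, exporters of organic anions, stood at 29.6 and 28.5 TPM against 12.2 and 12.6 TPM and 38.1 and 37.9 TPM against 22.97 and 21.9 TPM, differences of 1.17 (SE 0.08) and 0.73 (SE 0.07). TAP2, which loads peptides for MHC class I, was lower, at -1.01 (SE 0.11). In the redox and detoxification list 20 of 55 tested members were lower, 19 were higher and 16 did not pass. Those were 36.4% lower and 34.5% higher, with the lower share again near that of all tested genes. GSTM2 and GSTP1, glutathione transferases, were higher, at 1.73 (SE 0.26) and 0.98 (SE 0.05), with GSTP1 at 509 and 519.9 TPM against 258 and 262 TPM. HMOX1, heme oxygenase, was lower at 6.77 and 6.61 TPM against 24.98 and 22.1 TPM, a difference of -1.67 (SE 0.12), and NFE2L2, which encodes NRF2, at -0.92 (SE 0.06). NQO1 and GCLM, frequent reporters of NRF2, did not pass, with intervals of -0.05 to 0.26 and -0.34 to 0.39. PRDX2, a cytosolic peroxidase, stood at 1.67 and 1.82 TPM in the resistant line against 48.99 and 52.9 TPM in the parental line and at 28.8 and 35.7 TPM with DMSO, a difference of -4.24 (SE 0.11, adjusted p = 1.3e-06), and GPX7, an oxidase partner of the endoplasmic reticulum, at 0.18 and 0.19 TPM against 10.1 and 8.46 TPM. PRDX1 was higher, at 0.38 (SE 0.04).

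Glycolytic enzymes were called in both directions, and several abundant ones were higher. In the list of glycolysis and hypoxia genes, 26.8% were higher and 29.3% lower, against 21.3% and 34.8% of all tested genes. LDHB stood at 2126 and 2115 TPM in the resistant line against 921 and 906 TPM in the parental line, a difference of 1.21 (SE 0.04, adjusted p = 3.5e-06), with LDHA, TPI1, PFKL and GAPDH at 0.71 (SE 0.04), 0.83 (SE 0.04), 0.82 (SE 0.09) and 0.66 (SE 0.10). PGK1 was lower, at -0.85 (SE 0.05), and SLC2A1, a glucose transporter, at -0.50 (SE 0.06). P4HA2, a collagen prolyl hydroxylase that hypoxia induces, stood at 33.7 and 34.02 TPM against 123 and 122 TPM, a difference of -1.83 (SE 0.13). In that list, which also holds hypoxia genes, 12 of 41 tested members were lower, 11 were higher and 18 did not pass, with 7 higher without resistant library A, resistant library B or parental library B and 17 under upper-quartile scaling. CA12, a membrane carbonic anhydrase, stood at 6.73 and 7.77 TPM in the resistant line against 0.13 and 0.1 TPM in the parental line, a difference of 2.88 (SE 0.15, adjusted p = 1.3e-05). Among sterol and fatty acid genes 18 of 49 tested members were higher, 19 were lower and 12 did not pass. Enzymes of cholesterol synthesis were on both sides. LSS stood at 85.98 and 83.96 TPM against 38.6 and 37.2 TPM, a difference of 1.14 (SE 0.09), SC5D stood at 1.01 (SE 0.09), MVD at 0.97 (SE 0.08) and DHCR7 at 0.67 (SE 0.07), while CYP51A1 was lower, at -0.52 (SE 0.06). ACSL1 and ACSL4, which activate fatty acids, were lower, at -2.07 (SE 0.09) and -1.42 (SE 0.14), and FADS3 at -1.72 (SE 0.10).

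Of the G1 cell cycle genes 8 of 24 tested members were lower, 7 were higher and 9 did not pass, with 3 higher without resistant library B or parental library A and 4 without parental library B. CDKN1A, the inhibitor p21, was at -1.31 (adjusted p = 3.7e-05). MYC and FOS, immediate-early oncogenes, were at -0.77 (adjusted p = 7.6e-04) and -3.81 (adjusted p = 1.5e-06). CDK6 stood at 23.9 and 23.5 TPM against 71.6 and 66.6 TPM, a difference of -1.5 (SE 0.07), and CDKN2B at 5.79 and 6.36 TPM against 12.9 and 15 TPM, a difference of -1.08 (SE 0.12). CCNE1, cyclin E1, was higher at 66.8 and 65.1 TPM against 36.7 and 33.8 TPM, a difference of 0.89 (SE 0.15), and CDKN1B, the inhibitor p27, at 51.4 and 51.5 TPM against 31.8 and 30.6 TPM, a difference of 0.70 (SE 0.07). In the apoptosis list 17 of 28 tested members were lower (60.7%, against 34.8% of all tested genes), 4 were higher and 7 did not pass. CASP9, an initiator caspase, was lower, at -1.02 (SE 0.09). BCL2, an anti-apoptotic gene, did not pass, with an interval of -0.21 to 0.49.

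CHAC1, which degrades glutathione and is a target of ATF4 and CHOP, stood at 12.6 and 12.2 TPM in the resistant line against 34.9 and 36.7 TPM in the parental line, a difference of -1.45 (SE 0.16, adjusted p = 3.0e-04), and at 1.71 and 0.91 TPM with DMSO. Its promoter is shown as an example of the C/EBP-ATF element, TGATGNAA on either strand, which was found in 6 of 23 genes of the integrated stress response called at least 2-fold lower that had a promoter in the table (26.1%), against 3.89% of all genes with a promoter and 2.36% of tested ones. Genes of that list outside these 23 were not counted, so whether the share belongs to the whole list was not tested. The match in the CHAC1 promoter is in capitals and starts 209 bases before the start site (chr15:40953221-40953470, plus strand, GRCh38.p14).
CHAC1: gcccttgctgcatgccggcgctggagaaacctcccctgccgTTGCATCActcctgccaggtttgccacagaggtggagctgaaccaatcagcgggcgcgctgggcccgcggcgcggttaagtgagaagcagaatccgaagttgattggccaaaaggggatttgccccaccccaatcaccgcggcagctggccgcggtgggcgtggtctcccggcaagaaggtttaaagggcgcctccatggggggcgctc
ATF4, the factor itself, was at -0.38 (SE 0.04). The other 5 were ATF3, ASNS, SLC1A5, HERPUD1 and CEBPG, with differences of -2.04 (SE 0.06), -1.77 (SE 0.19), -1.07 (SE 0.06), -2.06 (SE 0.08) and -1.57 (SE 0.07). SLC7A5, an amino acid transporter that is also counted in the list, was higher, at 302 and 304 TPM against 226 and 229 TPM, a difference of 0.41 (SE 0.04).

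Outside the lists, GP6, a platelet collagen receptor gene, had the second lowest difference, with 0.53 and 0.32 TPM in the resistant line against 40.3 and 39.3 TPM in the parental line. STX3, a membrane fusion protein, stood at 2.26 and 2.35 TPM against 50.4 and 47.5 TPM and TMEM205 at 1.67 and 1.2 TPM against 33.2 and 36.1 TPM. PTGIS, prostacyclin synthase and a member of a prostanoid list, had the highest difference. It had 31.6 and 31.6 TPM in the resistant line against 0.29 and 0.65 TPM in the parental line. After the microRNA host, SMIM21 and HSPA12A followed. HSPA12A, a distant HSP70 relative, stood at 15.2 and 14.4 TPM against 0.42 and 0.8 TPM and is the 1 higher member of the HSP70 list. PPFIBP2, a liprin, stood at 36.6 and 36.05 TPM against 3.3 and 4.01 TPM.

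Some genes were near 0 TPM in 1 line. By the limits of under 0.5 TPM in both libraries of a line and at least 5 TPM in both of the other, 29 genes passed on the parental side and 8 on the resistant side under drug. The parental set included LAPTM5, a lysosomal membrane protein (0.39 and 0.27 TPM against 26.2 and 23.3 TPM), AGTR2, an angiotensin receptor (0.06 and 0.05 TPM against 11.1 and 11.6 TPM), MYO10, a motor of filopodia (0.43 and 0.44 TPM against 10.4 and 10.6 TPM), MYD88, the adaptor of Toll-like receptors (0.18 and 0.15 TPM against 5.99 and 6.77 TPM), NRK, a kinase (0.03 and 0.04 TPM against 9.53 and 8.63 TPM), and FXYD5, a modulator of the sodium pump (0.13 and 0.09 TPM against 9.52 and 10.2 TPM). The resistant set was SMIM21, TBC1D26, CA12, FAM78B, THSD7A, CBLN2, CNTN5 and PLCH1. SMIM21 led it with 12.01 and 11.8 TPM against 0.16 and 0.05 TPM, and CNTN5, an adhesion protein of neurons, had 6.15 and 5.51 TPM against 0.33 and 0.44 TPM.

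Differences were unevenly spread along the genome. Of 12242 tested protein-coding genes with a place in RefSeq, the median difference of a chromosome ran from -0.39 on chromosome 7 to 0.13 on chromosome 22. On chromosomes 7, 5, 3 and 1, 61.6%, 56.5%, 55.2% and 54.1% of genes were lower, against 38.4% of all placed genes, and on chromosome 22, 40.1% were higher, against 22.1%. Order along chromosomes is from GRCh38.p14 and the deposited values have none. Over 12081 windows of 8 neighbouring tested genes, the lowest median, -1.60, was on the X chromosome, where 7 of TCEAL1, MORF4L2, TMSB15B, ZCCHC18, FAM199X, NRK, MUM1L1 and CXorf57 were lower and 1 did not pass. Further along it, all 8 of PRPS1, TSC22D3, MID2, PSMD10, ATG4A, COL4A5, NXT2 and ACSL4 were lower (median -1.37). On chromosome 7 the window with CDK6 had all 8 lower (-1.23), and on chromosome 3 so did the window with SEMA3B and GNAI2 (-1.12). Of the 30 nearest tested neighbours of SEMA3B, 28 were lower, 0 higher and 2 did not pass, with a median of -0.95. These windows were picked for their values, so they carry no test.

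EGR1 lies on chromosome 5 in such a stretch. All 8 genes of its window, CDC23, CDC25C, FAM53C, KDM3B, REEP2, EGR1, ETF1 and HSPA9, were lower (median -1.12), and of its 30 nearest tested neighbours 26 were lower, 1 higher and 3 did not pass (median -0.68). HBEGF and DNAJC18 stand in a window on the same chromosome in which all 8 were lower (-1.17). ETF1, a translation release factor, stood at 65.1 and 67.4 TPM in the resistant line against 130.5 and 123 TPM in the parental line, a difference of -0.93 (SE 0.05, adjusted p = 1.9e-05), and HSPA9, the mitochondrial HSP70, at 188 and 190.5 TPM against 483 and 465 TPM, a difference of -1.32 (SE 0.05). DDIT3 and CDK4 lie on chromosome 12 among neighbours with very high levels in both lines. CDK4 stood at 11049 and 11115 TPM in the resistant line against 9328 and 9219 TPM in the parental line and was higher, at 0.26 (SE 0.06), a call that ended without any 1 of the 4 MAL3-101 libraries (adjusted p 0.0546 to 0.0744). OS9 and CTDSP2 did not pass. OS9 stood at 2000.5 and 2010.5 TPM against 2159 and 2205 TPM, SHMT2 at 2194 and 2277 TPM against 4547 and 4558 TPM and CTDSP2 at 1051 and 1066 TPM against 1015 and 995 TPM. Of the 30 neighbours of DDIT3, 14 were lower, 9 higher and 7 did not pass (median -0.16), while DDIT3 itself was at -2.57 and the lowest of these neighbours at -2.72. On the higher side, the window on chromosome 4 with MYOZ2 and SYNPO2 had a median of 1.05 with 6 of 8 higher, and that on chromosome 17 with MYH10 and NTN1 one of 0.96 with 7 of 8 higher. Copy number was not measured here.

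**Figure D5:**
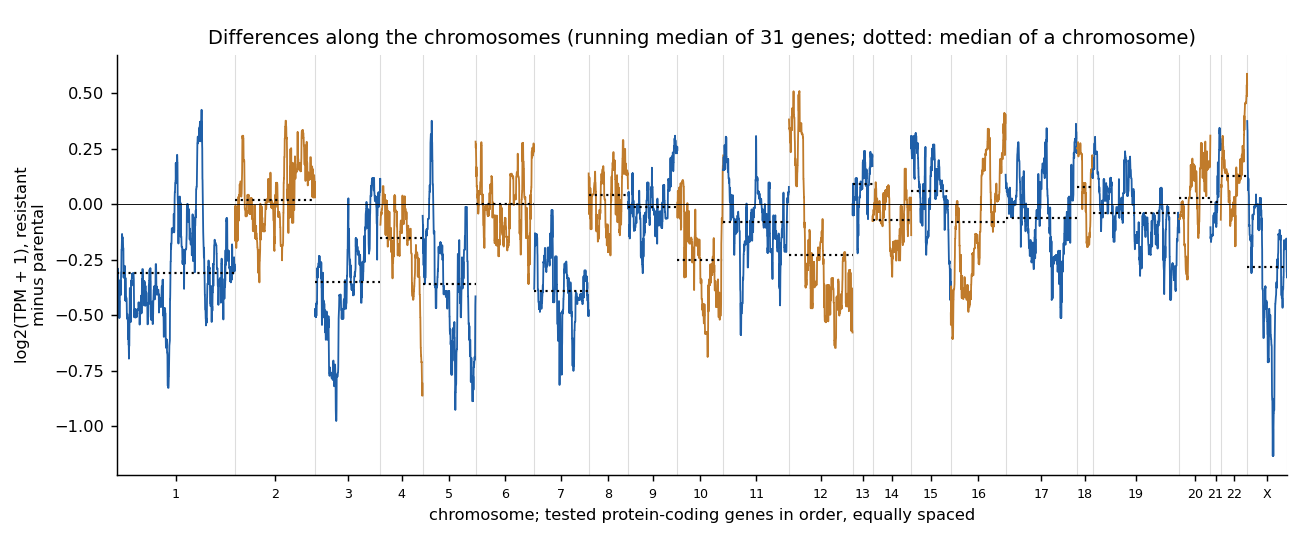
Running median over 31 tested protein-coding genes of the difference between resistant and parental cells (vertical axis, log2(TPM + 1)), with genes in chromosome order and equally spaced (horizontal axis); dotted lines are chromosome medians. The curve stays below zero over most of chromosomes 1, 3, 5 and 7 and dips lowest on the X chromosome, while chromosome 22 has the highest median at 0.13.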

How the data were processed

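RNA sequencing values were deposited by the authors as TPM per gene and library. RSEM, DESeq and the build hg19 are named, without versions or roles, per the submitters' processing notes. Depth is unknown. From these TPM values, log2(TPM + 1) was computed for genes with a mean of at least 1 TPM in a group. The 3 group means were fitted in limma 3.58.1 (R 4.3.3), using all 6 libraries and a trend of variance with mean level; a call is a Benjamini-Hochberg adjusted p under 0.05. Intervals are 95% and unadjusted. The fit was tested on simulated data. Figures used Python 3.11.15 and matplotlib 3.10.9. The members, gene lists and alternatives were chosen with earlier results of these data known. Named genes were the 15 largest differences each way (called, at least 5 TPM on average in some group, libraries not overlapping), up to 6 called members of a list by size, fixed stress, muscle and transporter genes, genes near 0 TPM in 1 line, and extreme windows; further list members were named after their values were seen. Alternatives covered the pseudocount, filter, scaling, TPM without the mitochondrial genome, gene class, left-out libraries, a replicate block and a fold threshold. Promoter and microRNA sequences and gene order are from RefSeq GRCh38.p14, matched by symbol. Some members of the lists are not reported here.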

Additional observations from a re-analysis of the deposited data

How the results depend on the processing

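Leaving out each library in turn gave 5999 to 10111 called genes, with 2124 to 3963 higher and 3828 to 6148 lower; the lowest count of higher genes, 2124, was that of the fit lacking resistant library B. A fit of only the 4 MAL3-101 libraries called 10116 genes (66.8%), 3974 higher and 6142 lower. Against a fold of 1.5 in limma, 1604 genes passed, 435 higher and 1169 lower. With the letters A and B as a replicate block 8381 genes were called, 3174 higher and 5207 lower. A-minus-B differences of the resistant pair did not correlate across genes with those of the parental pairs (-0.021 with MAL3-101, -0.02 with DMSO). This cannot show whether the letters mark shared cultures or preparations, which the labels do not say. No called gene named here changed sign under the alternatives run, while some that did not pass, such as HSF1, IGF1R, MUSK and ERBB3, did. TPM keep no depth, so no counting interval can be given.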

Other observations

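Of HOX and other patterning genes 10 of 38 tested members were higher, 6 were lower and 22 did not pass, shares of 26.3% higher and 15.8% lower against 21.3% and 34.8% of all tested genes; 10 were lower without either DMSO library. MEIS1, a homeobox cofactor of HOX proteins, was higher, at 1.43 (SE 0.16). HOXB9, a posterior HOX gene, stood at 1.53 and 1.52 TPM in the resistant line against 15.8 and 15.5 TPM in the parental line, a difference of -2.72 (SE 0.35, adjusted p = 5.5e-04), while HOXA10 was higher, at 0.61 (SE 0.11). Cancer-testis antigen genes, normally limited to the germ line, were lower for 6 of 8 tested members, with MAGEB1 at -2.73 (SE 0.13) and CTAG2 at -1.72 (SE 0.19). MAGEC1 was higher, at 30.97 and 29.4 TPM in the resistant line against 6.59 and 7.2 TPM in the parental line, a difference of 1.98 (SE 0.15, adjusted p = 4.8e-05). Members of the MAGEA group are near-identical copies, so that their separate values are uncertain. Of imprinted genes 13 of 29 tested members were lower, 6 were higher and 10 did not pass. Their median was -0.06, against -0.1 over all tested genes. IGF2, given above, is among the higher ones. PEG3, which lies beside ZIM2, stood at 106 and 104 TPM in the resistant line against 318 and 317 TPM in the parental line, a difference of -1.58 (SE 0.05, adjusted p = 2.8e-06), and MEG3, a long noncoding RNA, was lower, at -0.58 (SE 0.08).

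Of potassium, calcium and sodium channel genes 19 of 32 tested members were lower, 8 were higher and 5 did not pass, with a median of -0.59 against -0.10 over all tested genes; 11 were lower without parental library B. CACNA1H, a T-type calcium channel, stood at 0.26 and 0.21 TPM in the resistant line against 2.91 and 2.93 TPM in the parental line, a difference of -1.67 (SE 0.21, adjusted p = 4.7e-04). CACNG6, an auxiliary calcium channel subunit, was higher, at 6.49 and 7.55 TPM against 1.1 and 1.34 TPM, a difference of 1.85 (SE 0.15). Among G protein and cyclic AMP genes 22 of 51 tested members were lower, 17 were higher and 12 did not pass. RGS16, which ends the signal of active G proteins, stood at 25.3 and 24.2 TPM against 129 and 124 TPM, a difference of -2.31 (SE 0.06), and RGS4, of the same family, at 2.25 and 1.12 TPM against 0.03 and 0.27 TPM, a difference of 1.2 (SE 0.24). The phosphodiesterases PDE4D and PDE7B, which degrade cyclic AMP, were at -1.89 (SE 0.10) and 1.61 (SE 0.16).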
